A study of Mus musculus with 2 samples.

Results

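The regions described here were 2159 ATAC-seq peaks of the control library, 1.84% of its 117165 peaks, and 2224 peaks of the Ngn3-OE library, 1.78% of its 124935, that lay at the start of a long noncoding RNA (lncRNA) gene. A peak was taken when its summit was within 1 kb of a transcript start of a gene typed as lincRNA, antisense or processed transcript in the GENCODE M21 mouse annotation and more than 3 kb from every transcript start of a protein-coding gene. Among the called peaks the position of the summit made the choice. Where 1 interval held several summits, the strongest was used, and with any summit of the interval there were 2168 control and 2232 Ngn3-OE members. ATAC-seq uses the Tn5 transposase to cut and tag open DNA, so that sequenced tags pile up where chromatin is accessible.

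The cells were late retinal progenitor cells (late RPCs), which still divide in the newborn retina and give rise to its late-born cells. Pups were electroporated in vivo at postnatal day 1, in the control group with a control plasmid and in the Ngn3-OE group with a plasmid for overexpression of Neurog3 (Ngn3), a proneural transcription factor. In both groups GFP-positive cells were collected by sorting at day 2 after electroporation, and 50000 sorted cells made 1 library per group. Expression from an electroporated plasmid is ectopic and reaches a part of the retina, and each library pools the sorted cells, so neither single cells nor single animals can be told apart. With 1 library in each group there was no replicate check and no test of Ngn3-OE against control. All intervals below are 95% intervals that cover counting error only.

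LncRNAs are transcripts without a long open reading frame. Some act on the chromatin around their own gene, as in X inactivation and imprinting, some host small RNAs in their introns, and for many no function is known. Their starts behave like other promoters in that transcription factors and RNA polymerase II keep a short stretch of DNA free of nucleosomes, but fewer of them lie in CpG islands. In neural tissue many lncRNA genes sit beside genes of developmental transcription factors, whose enhancers may lie in the same stretch of DNA. An accessible lncRNA start therefore shows open DNA there and not, by itself, a transcript.

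Reference sequences of 8 peaks are printed as examples, each read from the plus strand of GRCm38 (mm10), 5′ to 3′. Apart from the first, each was picked to hold the marked letters. These examples therefore do not show how often a motif goes with a direction of change. The first is the control peak of Snhg6, a host gene of small nucleolar RNAs, at chr1:9943995-9944271. It stands for the strong CpG-rich members, and the capitals mark its 28 CpG dinucleotides.

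Snhg6: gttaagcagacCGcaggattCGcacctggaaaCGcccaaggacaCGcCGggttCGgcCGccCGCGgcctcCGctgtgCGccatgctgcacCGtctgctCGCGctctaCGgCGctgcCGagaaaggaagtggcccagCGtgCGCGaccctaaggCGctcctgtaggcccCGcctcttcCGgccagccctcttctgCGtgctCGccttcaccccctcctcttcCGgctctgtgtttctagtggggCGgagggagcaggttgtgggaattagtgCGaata

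The next 3 are control peaks that had more tags in Ngn3-OE. The peak of Vax2os at chr6:83703480-83703712 lies over an exon of a lncRNA 7.67 kb from the start of Vax2 and holds 1 GGATTA (written TAATCC on this strand), the core recognised by OTX2 and CRX. The peak upstream of C230057A21Rik at chr3:8736856-8736933 holds 1 E-box of the form CATCTG, the core bound by proneural basic helix-loop-helix factors, here on the opposite strand and so read as CAGATG. The peak upstream of Gm49156 at chr14:48741332-48741488, whose nearest protein-coding start was that of Otx2, holds 1 SOX-type site and 1 GGATTA. A SOX-type site is here CCATTGT or CCTTTGT, or its reverse complement. The C230057A21Rik peak also has 1 such site within 100 bp of its summit, outside the printed bases. Capitals mark the letters that lie within the printed bases.

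Vax2os: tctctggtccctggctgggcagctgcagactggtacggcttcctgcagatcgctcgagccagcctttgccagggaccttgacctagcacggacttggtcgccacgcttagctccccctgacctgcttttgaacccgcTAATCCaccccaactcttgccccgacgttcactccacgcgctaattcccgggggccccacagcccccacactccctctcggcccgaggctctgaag

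C230057A21Rik: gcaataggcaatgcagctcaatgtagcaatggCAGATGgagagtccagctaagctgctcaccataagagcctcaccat

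Gm49156: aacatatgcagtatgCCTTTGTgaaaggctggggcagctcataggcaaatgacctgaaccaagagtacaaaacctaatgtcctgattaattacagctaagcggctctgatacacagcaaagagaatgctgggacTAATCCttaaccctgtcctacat

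The next 2 are control peaks that were weaker in Ngn3-OE, with SOX-type sites in capitals. The peak in an intron of Gm13479 at chr2:45357348-45357583 and the peak in an intron of Gm12984 at chr4:135307311-135307514 are shown.

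Gm13479: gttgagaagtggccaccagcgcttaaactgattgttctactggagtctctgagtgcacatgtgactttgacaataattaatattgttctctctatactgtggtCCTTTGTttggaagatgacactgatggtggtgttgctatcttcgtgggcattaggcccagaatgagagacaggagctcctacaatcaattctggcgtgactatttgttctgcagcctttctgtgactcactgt

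Gm12984: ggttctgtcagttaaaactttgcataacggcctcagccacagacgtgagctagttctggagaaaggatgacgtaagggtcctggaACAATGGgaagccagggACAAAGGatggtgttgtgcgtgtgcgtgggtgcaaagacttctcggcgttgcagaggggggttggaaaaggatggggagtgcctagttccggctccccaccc

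The last 2 were found in Ngn3-OE only, with the E-box core in capitals. The peak in an exon of Gm36423 at chr13:9684608-9684733 holds 2 copies, and the peak just upstream of Gm20275 at chr9:59941047-59941129 holds 1.

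Gm36423: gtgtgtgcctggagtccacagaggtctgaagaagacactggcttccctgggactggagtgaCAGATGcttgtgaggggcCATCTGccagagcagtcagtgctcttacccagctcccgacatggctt

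Gm20275: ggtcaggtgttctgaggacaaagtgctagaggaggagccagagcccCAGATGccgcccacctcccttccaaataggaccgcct

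Some facts of the whole series bear on the values. The deposited lists were called separately in each library, and from each peak's fold enrichment and −log10 p the number of tags piled up at its summit was recovered as a whole number. The median over all peaks was 9 tags in both libraries. No peak lay in Neurog3 in the control library, and 1 peak with 1591 tags lay there in Ngn3-OE. Tags of the Neurog3 plasmid and of the genomic gene cannot be told apart in that peak. Of the progenitor markers, Pax6, Rax, Six3, Lhx2, Sox2, Hes1 and Ccnd1 each had a promoter peak in both libraries. None of the 4 pigment epithelium and 4 microglia markers had one in either library. Lens markers with a promoter peak numbered 1 of 4 in control and 2 of 4 in Ngn3-OE, endothelial markers 2 of 4 in both, and astrocyte markers 3 of 3 in control and 2 of 3 in Ngn3-OE. Erythroid markers with a peak numbered 1 of 3 in both. The part of these other cells in the results below was not tested.

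The summits gathered just upstream of the annotated starts. Of the control members 1226 (56.8%, 54.7 to 58.9) lay upstream of the nearest lncRNA start, and the median position was 36 bp upstream. In Ngn3-OE 1245 (56.0%, 53.9 to 58.0) lay upstream, with a median of 32 bp. Within 100 bp of the start on either side lay 26.8% of the control members (24.9 to 28.7) and 26.3% of the Ngn3-OE members (24.5 to 28.1), and the bin of 100 bp just upstream alone held 423 control and 422 Ngn3-OE peaks. In control, 20.2% of the summits lay in an exon of the lncRNA gene (18.6 to 21.9), 28.2% in an intron (26.3 to 30.1) and 51.6% outside the annotated gene (49.5 to 53.7).

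**Figure D1:**
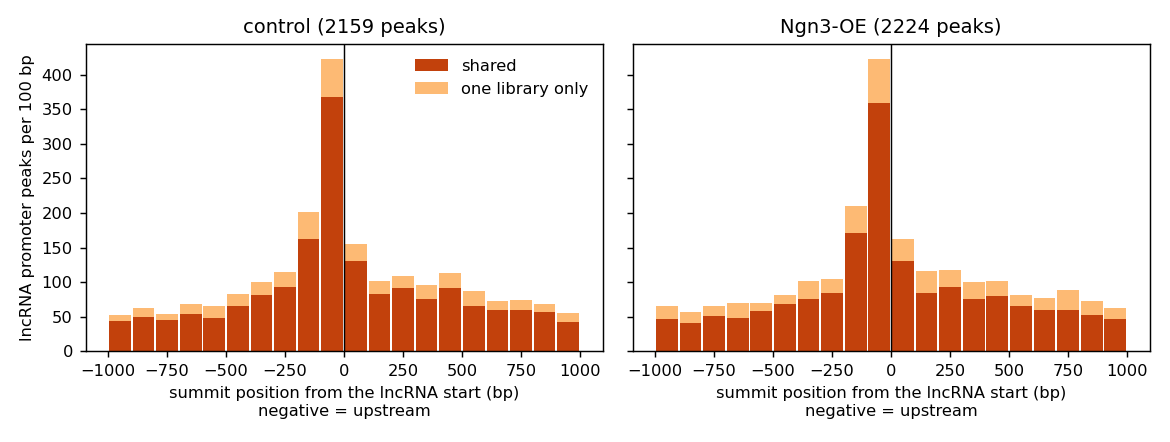
Number of lncRNA promoter peaks (y axis) by the position of the summit from the nearest lncRNA start in bins of 100 bp (x axis, negative upstream), with shared peaks in dark and one-library peaks in light orange. In both libraries the highest bin is the one just upstream of the start, with 423 control and 422 Ngn3-OE peaks.

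The peaks covered 23.7% of the lncRNA genes that the rule could reach. Of 9603 lncRNA genes, 7723 had a start more than 3 kb from any protein-coding start, and 1828 of these (23.7%, 22.7 to 24.6) had a member in at least 1 library. The share was 21.4% for lincRNA genes (20.3 to 22.5), 27.1% for antisense genes (25.2 to 29.2) and 35.6% for processed transcript genes (31.5 to 40.0). Counting also 11 genes reached through the 1 kb window alone, 1839 genes had a member, of which 1398 had one in both libraries, 187 in control alone and 254 in Ngn3-OE alone. Over all peaks, those found in 1 library alone were also more numerous in Ngn3-OE (33270) than in control (25424). The same gene counts were not made for protein-coding genes. For 587 genes 1 library held 2 or more members. RefSeq matched 1016 of the 1839 gene symbols and gave 29 as protein-coding, which covered 45 control and 48 Ngn3-OE members.

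LncRNA promoter peaks were stronger than distal peaks and weaker than promoters of protein-coding genes. The median member had 10 tags in control, with quartiles of 6 and 20, and 11 tags in Ngn3-OE, with the same quartiles. Peaks within 1 kb of a protein-coding start had a median of 21 tags in both libraries, and distal peaks, more than 3 kb from any start, had 8 in control and 7 in Ngn3-OE. On the scale of rank percentiles, where the −log10 q of a peak places it between 0 (weakest) and 100 (strongest) within its library, the median member stood at 54.2 in control and 55.0 in Ngn3-OE. The same median was 74.8 and 74.1 for protein-coding promoters and 44.8 in both libraries for distal peaks. Of the members 224 in control (10.4%) and 239 in Ngn3-OE (10.7%) were among the top 10% of their list. At the edge of the rule control peaks 900 to 1000 bp from the start (109 peaks) had a median rank of 56.2, and the 126 peaks of the next 100 bp, outside it, a median rank of 49.3.

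In sequence they also lay between these sets. Of the control members 381 (17.6%, 16.1 to 19.3) were in CpG-island-like sequence, defined as a GC content of at least 50% and an observed-to-expected CpG ratio of at least 0.6 in the 500 bp around the summit. That was 51.5 percentage points below protein-coding promoters (interval of the difference −53.2 to −49.7) and 15.5 points above distal peaks (13.9 to 17.2). Annotated repeats made up 7.33% of member bases in control and 7.44% in Ngn3-OE, against 8.20% and 8.46% in distal peaks and 5.18% in protein-coding promoters of the control list. A second near-identical copy in the genome was found for 43 shared and 10 control-only members of the control list.

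The E-box share of members also lay between those of the other sets. Within 100 bp on each side, the E-box core CATCTG was in 20.0% of control members (18.4 to 21.7), in 8.60% of protein-coding promoter peaks, in 25% of distal peaks and in 21.3% of all control peaks. The cAMP response element TGACGTCA was in 1.53% of control members (1.09 to 2.14), 1.14 points more than in distal peaks (0.70 to 1.75), and in 2.12% of protein-coding promoter peaks. The difference from protein-coding promoters was −0.59 points in control, with an interval that includes 0 (−1.07 to 0.047), and −0.76 points in Ngn3-OE, with an interval that does not (−1.18 to −0.18). This element was in 0.797% of all control peaks. The core of the CTCF motif was in 3.47% of control members (2.78 to 4.33) and in 4.38% of all control peaks.

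Most lncRNA promoter peaks were found in both libraries. Overlap with the other list by 1 bp or more made a peak shared. In control 1768 of 2159 members (81.9%, 80.2 to 83.5) were shared, and 391 (18.1%) were control-only, against a background of 21.7% over all control peaks. In Ngn3-OE 1749 of 2224 (78.6%, 76.9 to 80.3) were shared, and 475 (21.4%) were Ngn3-OE-only, against 26.6% over all Ngn3-OE peaks. The shared share was below that of protein-coding promoters, with a difference of −8.04 points in control (−9.77 to −6.43) and −7.61 points in Ngn3-OE (−9.42 to −5.90). It was above that of distal peaks, by 7.15 points in control (5.45 to 8.75) and 8.95 points in Ngn3-OE (7.17 to 10.6).

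Much of this order went with peak strength. When the comparison was made within rank deciles and averaged over the members' deciles, the difference from protein-coding promoters was −2.75 points in control (−4.23 to −1.27) and −0.42 points in Ngn3-OE (−1.93 to 1.09). The difference from distal peaks was 1.71 points in control (0.30 to 3.11) and 2.44 points in Ngn3-OE (1.01 to 3.87). Members in CpG-island-like sequence were shared in 89.5% of cases in control (86.0 to 92.2), and the other members in 80.3% (78.3 to 82.0). Their median ranks also differed, at 69.1 and 52.7. By gene type the shared share in control was 82.7% for lincRNA (80.5 to 84.6), 80.9% for antisense (77.5 to 84.0) and 80.0% for processed transcript members (74.7 to 84.4). In Ngn3-OE it was 79.8% for lincRNA (77.6 to 81.8), 74.7% for antisense (71.1 to 78.1) and 81.8% for processed transcript members (76.5 to 86.1). The intervals overlap within each library, but an overlap of separate intervals does not show that the types are alike. The differences between types were not tested.

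**Figure D2:**
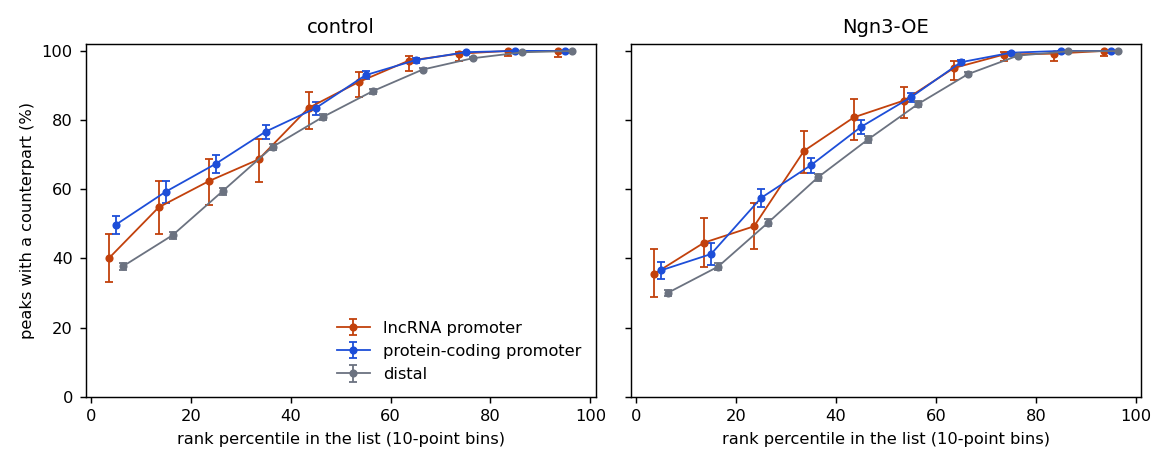
Share of peaks with a counterpart in the other library (y axis, %) by rank percentile in the peak's own list (x axis, bins of 10 points) for lncRNA promoter, protein-coding promoter and distal peaks, with 95% Wilson intervals. In each set the share rises with rank to nearly 100%, and the sets differ most among weak peaks. In the lowest control bin the share is 40% for lncRNA promoter, 49.7% for protein-coding promoter and 37.7% for distal peaks.

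More members were found in Ngn3-OE alone than in control alone. The log2 ratio of the counts 475 and 391 was 0.28 (0.088 to 0.47), beside 0.50 for protein-coding promoters (0.42 to 0.58), 0.37 for distal peaks (0.34 to 0.39) and 0.39 for all peaks (0.36 to 0.41). With the 50000 strongest peaks of each list the ratio for members was −0.039 (−0.33 to 0.25), with an overlap of 50% of both peaks 0.13 (−0.019 to 0.28), and among peaks with a −log10 q of 5 or more 0.36 (−0.024 to 0.75). These 3 intervals include 0. One-library members were weak: the median was 5 tags in both libraries, and none stood in the top 10% of its list. Among peaks with a −log10 q of 5 or more, 94 of 1509 control members (6.23%) were control-only, beside 7.89% of all such control peaks, and 121 of 1570 Ngn3-OE members (7.71%) were Ngn3-OE-only, beside 10.3%. In addition, 203 of the 391 control-only members (51.9%, 47.0 to 56.8) belonged to a lncRNA gene that had another member in the Ngn3-OE list, and 212 of the 475 Ngn3-OE-only members (44.6%, 40.2 to 49.1) to a gene with a control member. The same shares were not computed for other sets of peaks. Rmst, a lncRNA of neurogenesis that works with SOX2, had control-only peaks of 9 and 8 tags at 260 bp downstream and 248 bp upstream of a start and an Ngn3-OE-only peak of 7 tags at 7 bp downstream of it.

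Of the 5 strongest control-only members, 4 were those of Gm20052, Gm26911, Gm40847 and 1700019J19Rik. The peak of Gm20052, in an intron 925 bp downstream of a start and 71.0 kb from Msx1, had 23 tags, a −log10 q of 20.3 and a rank of 78.1. Gm26911 had 21 tags and 1700019J19Rik 12, the second with 1 SOX-type site. The peak of Gm40847 had 11 tags, but 22 near-identical copies of that sequence, its own included, exist in the genome. Its reads may belong to another copy, which was not tested.

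The 5 strongest Ngn3-OE-only members were those of Gm20005, Gm36423, 4933404O12Rik, Gm45069 and Gm17080. The peak of Gm20005, in an intron 956 bp downstream of a start, had 17 tags, a −log10 q of 23.5 and a rank of 81.1. The peak of Gm36423, with the 2 E-boxes shown above, had 19 tags and a rank of 80.2. The peaks of 4933404O12Rik, Gm45069 and Gm17080 had 15, 26 and 17 tags, and that of Gm17080 holds 1 GGATTA. None of the 5 has a second copy in the genome.

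The strongest lncRNA promoters stood at the top of both lists. The 5 shared members with the highest mean rank were those of Gm26611 (146 tags in control and 160 in Ngn3-OE), 1700096K18Rik (157 and 171), 2700038G22Rik (125 and 147), BB218582 (131 and 149) and Snhg6 (119 and 142). All stood at rank 99.6 or higher in both lists, 4 of the 5 were CpG-island-like, and each summit lay upstream of the start. Counting the peak itself, the sequence of the Gm26611 peak is present in 3 near-identical copies and that of 2700038G22Rik in 2.

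Hosts of small nucleolar RNAs and other growth-linked lncRNAs had the highest median rank of the 4 lists in control and stood level with the imprinted and X-linked list in Ngn3-OE. Of 26 listed genes 15 had a member, 6 had all their starts within 3 kb of a protein-coding start, 1 was of another gene type, 2 were not matched and 2 had no peak within 1 kb. Their 24 paired peaks had a median rank of 86.0 in control and 84.1 in Ngn3-OE, and 25 of their 29 control members were CpG-island-like. Snhg8 had 118 tags in control and 132 in Ngn3-OE, Snhg15 had 76 and 81, and Snhg12 had 43 and 39. Dancr, which also hosts a small nucleolar RNA, had 128 and 113 tags. 1810026B05Rik (Chaserr), a lncRNA beside Chd2, had 132 and 127, and Pvt1, the neighbour of Myc, had 19 in both. For Snhg20 the values were 19 and 33, a ratio of 1.74 with an exact interval of 0.96 to 3.23. Epb41l4aos had 50 and 73, a ratio of 1.46 (1.01 to 2.14), whose interval includes 1 after division by the median tag ratio over all pairs (0.93 to 1.98). Snhg8 also had 3 control-only peaks, of 14, 12 and 20 tags. Trp53cor1, a p53-induced lncRNA, had a weak peak of 7 and 6 tags. Of the 24 pairs none moved down by 20 or more rank percentiles in Ngn3-OE, beside 10.6% of all pairs, and 2 moved up, beside 15.2%. These were the second peaks of Snhg8, with 17 and 22 tags, and of Epb41l4aos, with 10 and 18.

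Imprinted and X-linked regulatory lncRNAs act on the chromatin of their own gene cluster or chromosome. Of 15 listed genes 10 had a member, and the median rank of their pairs was 76.9 in control and 84.0 in Ngn3-OE. Of their members 12 of 13 in control and 13 of 15 in Ngn3-OE were shared, where all peaks were shared in 78.3% and 73.4%. For the growth-linked list these were 25 of 29 and 25 of 25, and for microRNA hosts 21 of 26 and 22 of 29. For neural and retinal lncRNAs they were 17 of 23 and 18 of 26. Of the 12 pairs of the imprinted and X-linked list 2 moved up by 20 or more rank percentiles, beside 15.2% of all pairs, and none moved down, beside 10.6%. These were the peak of Tsix, from rank 27.2 to 59.0, and the second peak of Meg3, from rank 56.4 to 76.9. Airn, the imprinted antisense transcript of the Igf2r gene, had 40 tags in control and 64 in Ngn3-OE, a ratio of 1.6 (exact interval 1.06 to 2.44). Kcnq1ot1, which silences an imprinted gene cluster, had 51 and 55 tags. At the imprinted gene Meg3 the peak at the first start had 12 and 10 tags, and a second peak, 441 bp upstream of a later start, had 10 and 17. Meg3 also had an Ngn3-OE-only peak of 5 tags, and H19 had a control-only peak of 5 tags. Among the lncRNAs of the X inactivation centre, Ftx had 69 and 62 tags and Jpx 43 and 51, whereas Xist, the transcript that coats the inactive X, had a pair of 6 and 8 and an Ngn3-OE-only peak of 7 tags, and its antisense partner Tsix had 5 and 9. Firre and 4933407K13Rik (Dxz4), both linked to the folding of the inactive X, had 80 and 79 tags and 21 and 25 tags. Airn was the pair of this list whose interval excluded 1 with tags as recovered. Tags ran higher in Ngn3-OE over all pairs, by a median ratio of 1.08 among those with 10 tags or more, and after division by that ratio the interval of Airn was 0.98 to 2.26, which includes 1.

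MicroRNA host genes are lncRNA genes whose transcripts carry a microRNA precursor. Of 17 listed names 11 had a member, with 20 paired peaks. The list also held 2 microRNA genes without a member and Mirt1 and Mirt2, which are not named for a microRNA, and Mirt1 gave 1 of the 20 pairs, of 7 and 6 tags. Of the 20 pairs 2 moved down by 20 or more rank percentiles in Ngn3-OE, beside 10.6% of all pairs, and none moved up, beside 15.2%. Mir22hg had 100 tags in control and 114 in Ngn3-OE, Mir17hg 61 and 62, and Mir124-2hg, a host of a neuronal microRNA, 79 and 90 at its strongest peak and 20 and 24 at another. Mir124-2hg also had 2 control-only peaks of 25 tags each, at ranks 45.6 and 50.7. Mir9-3hg, a host of a microRNA of neural progenitors, had 17 tags and rank 51.2 in control and 7 tags and rank 7.29 in Ngn3-OE, a ratio of 0.41 (exact interval 0.14 to 1.04, or 0.134 to 0.97 after division by the all-pair ratio). Mir99ahg had 3 paired peaks. The one in an exon 913 bp downstream of a start had 27 and 10 tags, a ratio of 0.37 (0.16 to 0.79), while those upstream of its starts had 12 and 14 and 21 and 22 tags. The lower value in Ngn3-OE was thus at 1 of these 3 peaks.

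Neural and retinal lncRNAs were open at a middling level. Of 36 listed names, which stand for 35 genes since Pantr1 and Pou3f3os are the same gene, 16 had a member and 8 had all starts within 3 kb of a protein-coding start, among them Otx2os1 and Pax6os1. Their 17 paired peaks had a median rank of 61.8 in control and 59.3 in Ngn3-OE, 3 moved up by 20 or more rank percentiles, beside 15.2% of all pairs, and none moved down by that much, beside 10.6%. One of the 3 is the second peak of Meg3, already counted in the imprinted list, and Mir124a-1hg is also in the list of microRNA hosts. The median move of the 17 pairs was −3.80 rank percentiles, beside 0.96 for all member pairs. Vax2os, a retinal lncRNA, had 12 tags and rank 63.2 in control and 23 tags and rank 83.4 in Ngn3-OE, a ratio of 1.92 (exact interval 0.92 to 4.23). Six3os1, the opposite-strand transcript of Six3, had 26 and 18 tags, a ratio of 0.69 (0.36 to 1.31). Miat, a nuclear lncRNA of neurons and retina, had a pair of 16 and 12 tags and a control-only peak of 13 tags. Rncr4, a lncRNA of the developing retina, had 32 and 30 tags, and Mir124a-1hg, known in retina as a host of a neuronal microRNA, had pairs of 41 and 43 and of 27 and 30 and an Ngn3-OE-only peak of 21 tags, at rank 32.8. 1700020I14Rik (Cyrano) had 54 and 59. Sox2ot, the long transcript that spans Sox2, had 2 paired peaks of 15 and 13 and of 16 and 13 tags, 2 control-only peaks of 8 and 12 tags and an Ngn3-OE-only peak of 4 tags. The nearest protein-coding start to C130071C03Rik was that of Mef2c. C130071C03Rik had 55 and 34 tags at one peak, a ratio of 0.62 (0.39 to 0.96), 62 and 49 at another and 17 and 25 at the third, where the rank was 43.7 in control and 72.3 in Ngn3-OE. Malat1, one of the most abundant nuclear lncRNAs, had a single weak Ngn3-OE-only member of 5 tags. Over the 69 pairs of all listed lncRNAs, the exact interval of the tag ratio lay above 1 in 2 and below 1 in 2. These shares, 2.90% each, stood beside 2.74% and 2.43% of all pairs, with no adjustment for the number of pairs. After division by the all-pair ratio the counts were 0 and 3, beside 1.58% and 3.47% of all pairs.

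Among paired peaks the shares of large moves by rank lay near those over all pairs. Only reciprocal best pairs were used, since several narrow peaks of one list can overlap 1 wide peak of the other. Of 1725 pairs 233 (13.5%, 12 to 15.2) moved up by 20 or more rank percentiles in Ngn3-OE, against 15.2% of all 90427 pairs, and 173 (10.0%, 8.70 to 11.5) moved down by as much, against 10.6%. At 10 or more rank percentiles 474 pairs moved up (27.5%) and 341 down (19.8%), against 28.4% and 20.7% of all pairs, and at 30 or more they were 98 (5.68%) and 93 (5.39%), against 7.21% and 5.43%. At 20 both shares were above those of protein-coding promoters, at 8.03% and 5.31%, and below those of distal peaks, at 17.6% and 12.5%. With at least 10 tags in 1 library, 69 of 1292 pairs (5.34%, 4.24 to 6.70) had at least 2-fold more tags in Ngn3-OE, below the 7.0% of all such pairs, and 82 (6.35%) had at least 2-fold more in control, against 6.11%. Tags ran higher in Ngn3-OE over all such pairs, with a median log2 ratio of 0.11 and of 0.093 among members. After division by the all-pair median the counts were 45 and 91 members, or 3.48% and 7.04%, beside 4.39% and 6.96% over all pairs.

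The largest moves up, among pairs at rank 50 or above in 1 library, were at Gm14254, Gm32531, AC157910.6, 1700012C14Rik and Gm46447. The peak upstream of Gm14254, 46.7 kb from Tox2, had 4 tags and rank 9.49 in control and 13 tags and rank 72.2 in Ngn3-OE. It has 1 SOX-type site within 100 bp of the control summit. The other 4 had 3 to 6 tags in control and 9 to 16 in Ngn3-OE, so these pairs started near the limit of peak calling. The largest moves down were at Gm49469, Gm12984, 1700019P21Rik, Gm15831 and Gm19385. The peak of 1700019P21Rik had 38 tags and rank 91.2 in control and 5 tags and rank 27.7 in Ngn3-OE. That of Gm12984, with the 2 SOX-type sites printed above, had 18 and 4 tags. That of Gm15831, 7.91 kb from Hopx, had 15 and 4 tags. Apart from Gm12984, the peaks with the largest moves down have no SOX-type site within 100 bp of the control summit. The pairs named here were picked for their moves, so the values are a description.

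**Figure D3:**
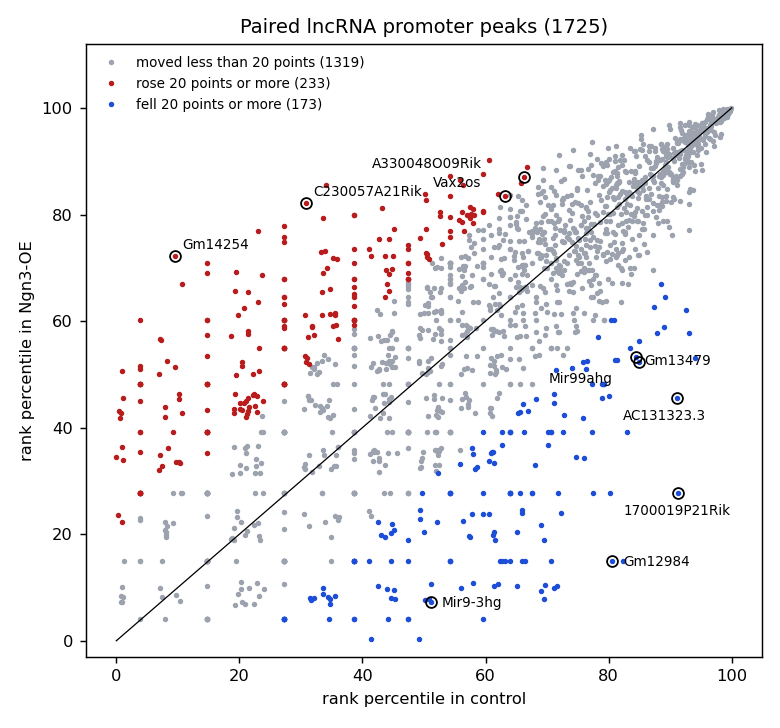
Rank percentile in control (x axis) and in Ngn3-OE (y axis) of 1725 paired lncRNA promoter peaks, with 233 that moved up by 20 points or more in red, 173 that moved down in blue and named peaks ringed. The strongest peaks, such as that of Snhg6, lie near the line of equal rank at the upper right.

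Some members lay nearest to genes of retinal and neural transcription factors and signalling proteins. Of 92 listed factors 36 were the nearest protein-coding gene of at least 1 member, with 79 control members (67 shared) and 87 Ngn3-OE members (68 shared), where 78.3% of all control peaks and 73.4% of all Ngn3-OE peaks were shared. Many of these genes were far away, and a nearest gene is a position and not a shown target. Of the 66 pairs 10 (15.2%, 8.44 to 25.7) moved up and 10 moved down by 20 or more rank percentiles, beside 13.4% and 9.83% of the other 1659 pairs, and these intervals overlap. Over all 90427 pairs the shares were 15.2% up and 10.6% down. Tags were higher in Ngn3-OE in 31 of the 66 pairs and higher in control in 33, whereas over all pairs they were higher in Ngn3-OE in 52.4% and higher in control in 38.4%. The exact interval of the tag ratio lay above 1 in 3 of the 66 pairs and below 1 in 5, with no adjustment for the number of pairs. Over all 90427 pairs the same intervals lay above 1 in 2.74% and below 1 in 2.43%, and among the 1725 member pairs in 55 and 47. After division by the all-pair ratio of 1.08 the counts were 2 and 7 of the 66 pairs, beside 1.58% and 3.47% of all pairs. The interval of 8430419K02Rik then included 1, and those of Paupar and 9030404E10Rik then lay below 1. The 8 pairs counted before that division are all named below, and the other pairs were picked for the factors they lie near after their values were seen.

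Near genes of the Notch pathway and its targets the values went both ways. Upstream of C230057A21Rik, 69.6 kb from Hey1, a Notch effector, the peak printed above had 10 tags in control and 33 in Ngn3-OE, a ratio of 3.30 (1.59 to 7.51), and a second peak nearer the start had 39 and 52. At 4632428C04Rik, 56.3 kb from Hes1, the main Notch effector of progenitors, the stronger peak had 52 and 30 tags, a ratio of 0.58 (0.36 to 0.92). Its other pair had 15 and 12. Further lncRNAs near Hes1 were Gm26569, with 45 and 53 tags, and 9030404E10Rik, with 19 and 8. At Gm5091, whose nearest coding gene was the Notch ligand gene Dll1 at 128 kb, the values were 76 and 50, a ratio of 0.66 (0.45 to 0.95), while at Gm35576, 90.4 kb from Dll1, they were 15 and 28 (0.96 to 3.76). A330048O09Rik, 12.7 kb from Id4, an inhibitor of proneural factors, had 11 tags in control and 23 in Ngn3-OE, a ratio of 2.09 (0.98 to 4.75).

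Near genes of progenitor and glial factors the values also went both ways. The lowest ratio of the 66 pairs was upstream of AC131323.3, 8.92 kb from Sox8, with 40 tags and rank 91.1 in control and 9 tags and rank 45.6 in Ngn3-OE. The ratio was 0.23 (0.096 to 0.47), and the peak holds none of the SOX-type, E-box and GGATTA letters near its summit. Gm13479, in the wide gene-poor stretch 240 kb from Zeb2, had 25 and 8 tags, a ratio of 0.32 (0.125 to 0.73), at the peak printed above, and 8 and 6 at its other peak. Paupar, a lncRNA upstream of Pax6 that works with PAX6 in neural cells, had 47 and 29 tags at one peak (ratio 0.62, 0.375 to 1.00) and 27 and 19 at the other. A330102I10Rik, whose nearest coding gene was Sox4, had 3 pairs, with 18 and 6 tags (ratio 0.33, 0.108 to 0.88), 14 and 6, and 14 and 18, so its peaks did not move together. Sox5os2 had 40 and 27. More tags in Ngn3-OE stood at Gm13589 near Lhx2 (16 and 26), Gm33326 near Sox1 (9 and 17) and Gm26735 near Sox4 (6 and 8). AC131323.5, a further lncRNA near Sox8, had pairs of 13 and 18 and of 23 and 14 tags. Gm12676, near the gliogenic factor gene Nfia, had 24 and 20 tags at one pair and 12 and 17 at the other.

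Near genes of neuron and photoreceptor factors values also went both ways. The peak of Gm49156 printed above, 67.6 kb from Otx2, had 25 tags and rank 76.9 in control and 47 tags and rank 91.3 in Ngn3-OE, a ratio of 1.88 (1.13 to 3.19), beside 32 and 36 at its other peak. A930019D19Rik, 38.0 kb from Insm1, a factor of newborn neurons, had 36 and 52 tags. Near Onecut1, a factor of horizontal and ganglion cells, Gm16551 had 6 and 14 tags (ratio 2.33, 0.84 to 7.41) and Gm20649 9 and 18 (2.0, 0.85 to 5.05). Near Nr2e3, a rod factor, Gm20275 had Ngn3-OE-only peaks of 13 and 5 tags, the first with the E-box printed above, and Gm15507 had 8 and 14 tags. 8430419K02Rik, near the homeobox gene Meis1, had 8 and 20 tags at one peak, a ratio of 2.50 (1.05 to 6.56), and 8 and 6 and 10 and 9 at its other pairs. The Ngn3-OE peak of 20 tags overlapped a second control peak of 8 tags as well. Lower values stood here too. 4930597A21Rik near Ebf1 had 10 and 5 tags, and Gm30725, 274 kb from Prox1, had 7 and 3 at one peak and 7 and 5 at the other.

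**Figure D4:**
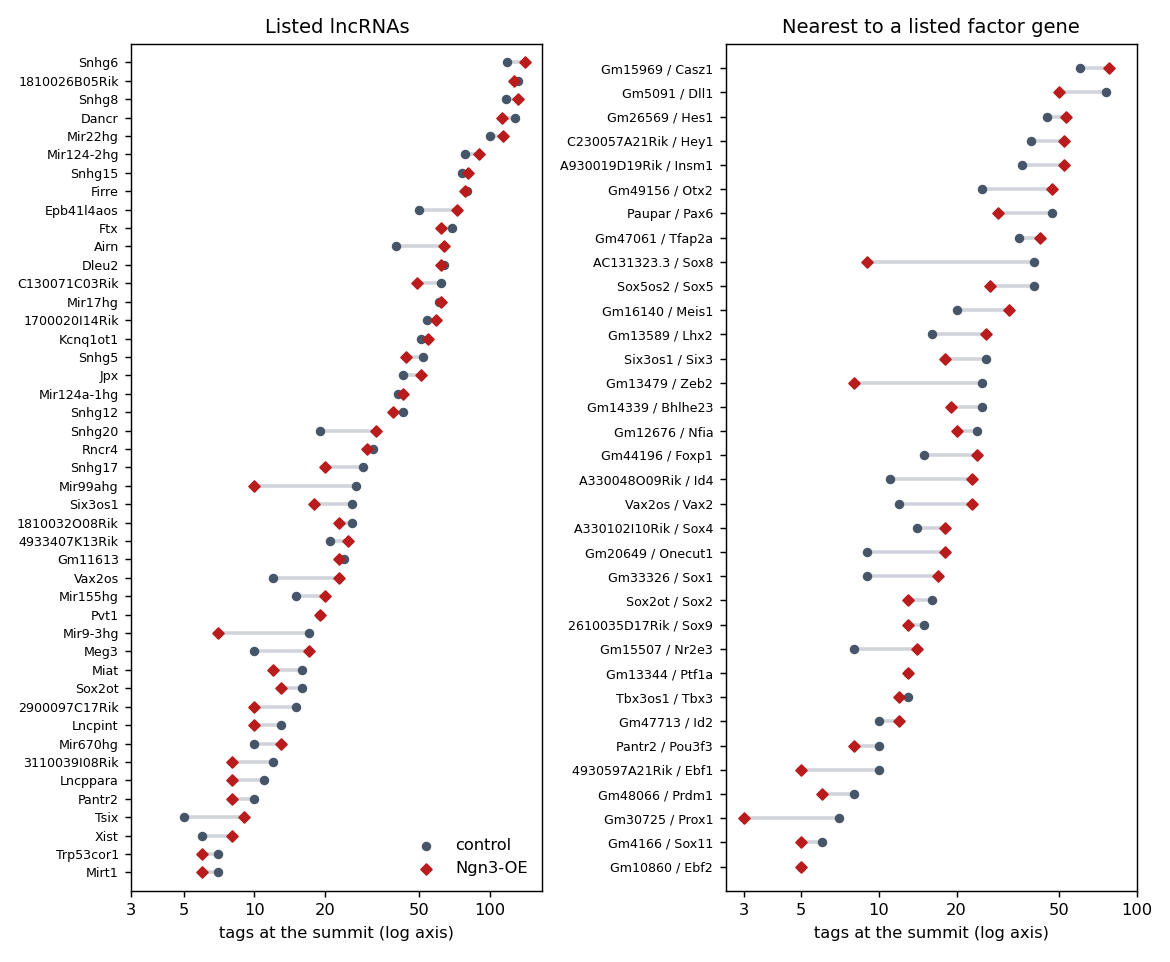
Tags at the summit (x axis, log scale) in control (grey circles) and Ngn3-OE (red diamonds) at the strongest paired peak of each listed lncRNA (left) and of the members nearest to each listed factor gene (right, lncRNA / factor gene). Most pairs of symbols lie close together, and the wide gaps include Mir99ahg (27 and 10), AC131323.3 near Sox8 (40 and 9), Gm13479 near Zeb2 (25 and 8) and Gm49156 near Otx2 (25 and 47).

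Members found in 1 library only differed between the libraries in GGATTA and SOX-type letters. Over all members the intervals of the 2 libraries overlap, with GGATTA in 11.5% in control (10.2 to 12.9) and 13.3% in Ngn3-OE (12 to 14.8) and SOX-type sites in 8.71% (7.59 to 9.97) and 7.60% (6.57 to 8.77). GGATTA was in 75 of 475 Ngn3-OE-only members (15.8%, 12.8 to 19.3) and in 29 of 391 control-only members (7.42%, 5.21 to 10.4), a difference of 8.37 points (4.11 to 12.6). SOX-type sites were in 33 Ngn3-OE-only members (6.95%, 4.99 to 9.60) and in 44 control-only members (11.3%, 8.49 to 14.8), a difference of −4.31 points (−8.33 to −0.48). The E-box core was in 109 Ngn3-OE-only (22.9%, 19.4 to 26.9) and 75 control-only members (19.2%, 15.6 to 23.4), a difference of 3.77 points whose interval, −1.73 to 9.14, includes 0. The same differences were 10.8, −5.93 and 6.06 points in distal peaks and 4.44, −2.49 and 1.99 points in protein-coding promoters. For each motif the members' point estimate lay between those of the other sets. Among one-library members with a −log10 q of 5 or more, a smaller set, the GGATTA difference was 15.9 points (6.49 to 24.8). There the SOX-type difference was −15.6 points (−24.7 to −7.69) and the E-box difference 6.36 points (−4.52 to 16.5). GGATTA was first seen in these libraries. The study named the E-box in regions that gained accessibility and SOX motifs in regions that lost it, in the same libraries. The patterns of these motifs here are therefore not independent of that choice.

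The paired members, which carry accessibility in both libraries, showed the same directions for GGATTA and SOX-type sites. Among those that moved up GGATTA was in 45 of 233 (19.3%, 14.8 to 24.9), among those that moved down in 8 of 173 (4.62%, 2.36 to 8.86), and among the 1319 that moved less in 12.1% (10.4 to 13.9). The difference between up and down was 14.7 points (8.47 to 20.7), beside 14.2 points over all pairs, where GGATTA was in 22.8% and 8.60%, 15.6 points in distal pairs and 5.00 points in protein-coding promoter pairs. SOX-type sites were in 21 of those that moved up (9.01%, 5.97 to 13.4) and in 32 of those that moved down (18.5%, 13.4 to 24.9), a difference of −9.48 points (−16.6 to −2.78), beside −8.54 points over all pairs, −9.54 in distal and −3.16 in protein-coding promoter pairs. The E-box core was in 26.2% and 20.2%, a difference of 5.95 points whose interval, −2.47 to 14.0, includes 0. The E-box difference was 6.47 points over all pairs (5.38 to 7.55), 7.25 in distal and 3.85 in protein-coding promoter pairs. With moves of 10 or more rank percentiles the E-box difference was 3.82 points (−2.03 to 9.45). The GGATTA difference was then 13.3 points (8.74 to 17.6) and the SOX-type difference −4.89 points (−9.39 to −0.68). With moves of 30 or more rank percentiles, a smaller set, the E-box difference was 12.5 points (0.81 to 23.7), the GGATTA difference 12.1 points (3.85 to 20.8) and the SOX-type difference −6.14 points, with an interval that includes 0 (−17.0 to 4.66). Over all peaks of the control list GGATTA was in 13.9% and SOX-type sites in 8.80%. A match to these letters is a description of the sequence and does not show that a factor bound there.

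**Figure D5:**
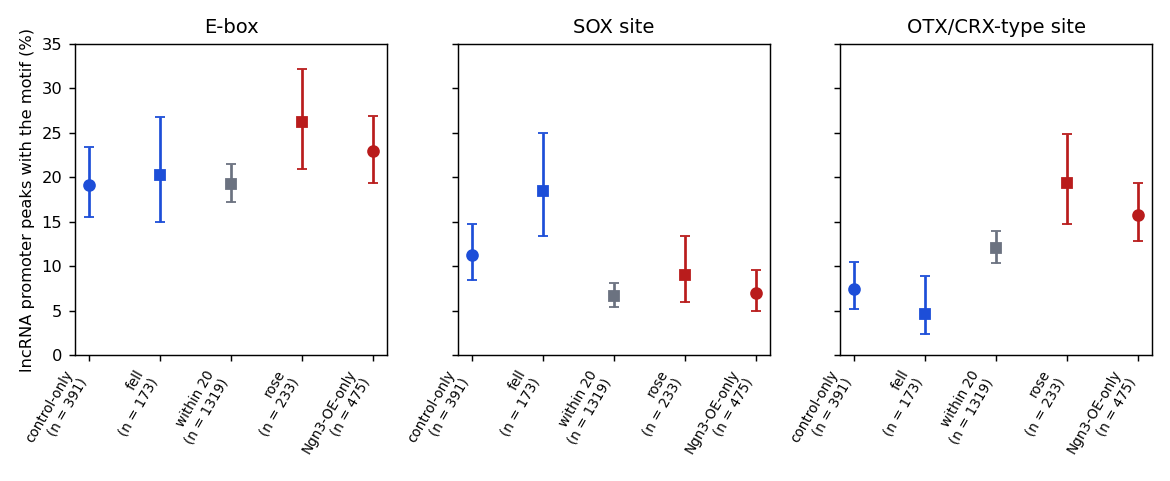
Share of lncRNA promoter peaks (y axis, %) with the E-box CATCTG, a SOX-type site or GGATTA (OTX/CRX-type) within 100 bp of the summit, with 95% Wilson intervals, for one-library peaks (circles) and for paired peaks that fell or rose 20 rank percentiles or more or moved less (squares). GGATTA runs from 4.62% in peaks that fell to 19.3% in peaks that rose, SOX-type sites are most frequent in peaks that fell (18.5%) and lower in those that moved less (6.67%) or rose (9.01%), and the E-box intervals overlap.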

How the data were processed

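ATAC-seq peak lists of 1 control and 1 Ngn3-OE library were used, with groups taken from the sample titles. Per the methods and the submitters' processing notes, the authors trimmed reads with Trimmomatic, aligned them to mm10 with Bowtie2, removed duplicate, mitochondrial and blacklisted reads (Picard, SAMtools, bedtools), shifted read ends to the Tn5 cut (deepTools), kept short fragments and called peaks in each library with MACS2 at a q-value of 0.05. The deposited score is 10 times the −log10 q. The deposited fold enrichment is the ratio of the summit pileup to the local background. The deposited −log10 p-value and −log10 q-value belong to the summit. None of these is normalised between libraries, and the reads behind a library were not counted, so the total depth is not known and tags are not divided by it.

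The lists held 128853 and 136761 lines. Lines off chromosomes 1 to 19, X and Y (159 and 150) were left out, lines of 1 interval were merged, keeping the summit of highest −log10 q, and 1 control and 3 Ngn3-OE lines without a summit were given their midpoint. Tags at the summit were solved from the fold enrichment and −log10 p through the Poisson model of MACS2, and for all peaks the best whole number matched the deposited −log10 p within 0.01. Annotation was GENCODE M21 basic, and sequence was GRCm38.p6, the same build as mm10. Copies were sought with blastn 2.17.0 (at least 95% identity over 90% of the peak). Intervals are Wilson for shares, Newcombe for differences, normal for log2 ratios of counts and exact binomial for tag ratios. Neighbouring peaks are not independent, and the intervals do not carry that. Functions were tested on simulated data.

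Named peaks were the 5 strongest shared, the 5 strongest of each one-library set, the 5 largest moves up and down among pairs at rank 50 or above in 1 library, the listed lncRNAs and members nearest to a listed factor gene. Members, lists and motifs were chosen with earlier results of these data known. Symbols were matched to GENCODE directly or through RefSeq synonyms. Some items, among them 1 named peak and 1 marker, are not reported here. The authors' differential regions and RNA-seq were not used.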

Additional observations from a re-analysis of the deposited data

How the results depend on the processing

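No paired analysis was possible because each group had 1 library, and for the same reason no library could be left out. Of 101 alternative values 65 stayed within the counting interval of the reported value (counts within 1.5 times) or kept their side of 1, and 1 changed sign. That was the log2 ratio of Ngn3-OE-only to control-only members, −0.039 with the 50000 strongest peaks of each list. The cause was not tested. The shared share was 69.1% in control and 67.1% in Ngn3-OE when 50% of both peaks had to overlap, 77.1% and 74.6% with summits within 100 bp, and 93.8% and 92.3% for peaks with −log10 q of 5 or more. In Ngn3-OE it was 81.7% among the top 50000 peaks, 80.6% with a 500 bp and 76.8% with a 2 kb start window. With the 50% overlap the difference from protein-coding promoters was −10.6 points in control and −9.84 in Ngn3-OE, and from distal peaks 4.85 points in control. Standardised over rank deciles these were −2.75, −0.42, 1.71 and, for distal peaks in Ngn3-OE, 2.44 points. For peaks with −log10 q of 5 or more the SOX-type difference between one-library sets was −15.6 points and the GGATTA difference 15.9 points. CpG-island-like members were 21.6% with a 200 bp window, and repeats were 8.96% in control and 9.31% in Ngn3-OE within 200 bp of the summit. At 10 rank percentiles 474 pairs moved up (28.4% of all pairs did) and 341 down (20.7%), and at 30 they were 98 (7.21%) and 93 (5.43%). Pairs with 2-fold more tags in Ngn3-OE were 45 after median scaling, against 91 higher in control. With at least 20 tags in 1 library they were 28, against 26 higher in control. At 10 tags the larger count was on the control side, with 69 and 82. The share over all pairs at 20 tags was not computed. Division of tag ratios by the all-pair median, after which 3 named pairs no longer excluded 1 and 3 others did, the full annotation, the removal of genes coding in RefSeq and of members with a second copy were added after the data were seen, as were all alternatives for GGATTA and for the motif shares by rank move. The full annotation gave 2155 control and 2214 Ngn3-OE members. Many members have 10 tags or fewer, where a difference of a few tags can decide whether a peak was called.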
